A study of Homo sapiens with 12 samples.

Results

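The transcripts described here came from 9 genes chosen by name: the cadherins CDH1, CDH2, CDH3, CDH4, CDH6, CDH11 and CDH13, the catenin gene CTNND1 and the intermediate filament gene VIM. They were matched by symbol among the 58051 gene identifiers of the deposited count files, and all 9 were found. The libraries were poly(A) RNA-seq of FaDu, an established line from a squamous cell carcinoma of the hypopharynx, and Cal27, an established line from a squamous cell carcinoma of the tongue. Each line was sampled as parental cells, as AfaR cells selected for growth in afatinib, an irreversible inhibitor of the ErbB receptor family, and as ErlR cells selected for growth in erlotinib, a reversible EGFR inhibitor. This gave 6 groups with 2 biological replicates each, 12 libraries in all. All groups are labelled wild type. Each resistant model was 1 population made by stepwise dose escalation, kept under its drug and released from it before experiments, so its replicates describe that population and not independent selections. FaDu was grown in EMEM and Cal27 in DMEM, and a difference between the lines cannot be told apart from a difference between the media. The AfaR and ErlR libraries of a line were compared with the same 2 parental libraries.

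Classical cadherins are calcium-dependent adhesion receptors that join neighbouring cells through their extracellular repeats. Inside the cell their tails bind β-catenin or plakoglobin, which link to actin through α-catenin, and p120-catenin (CTNND1), which holds the cadherin at the surface. E-cadherin (CDH1) and P-cadherin (CDH3) are the cadherins of squamous epithelium, whereas N-cadherin (CDH2), R-cadherin (CDH4), K-cadherin (CDH6) and OB-cadherin (CDH11) are typical of neural, kidney or mesenchymal tissue. T-cadherin (CDH13) lacks the cytoplasmic tail and sits on a lipid anchor. Vimentin (VIM) builds the intermediate filaments of mesenchymal cells, and a fall of CDH1 with a rise of CDH2 and VIM is the common transcript readout of epithelial-mesenchymal transition (EMT).

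In the GRCh38 coordinates of the count files, CDH3 (chr16:68636189-68722616) and CDH1 (chr16:68737225-68835548) lie side by side on the plus strand, 14608 bp apart. CDH11 (chr16:64943753-65126112, minus strand) and CDH13 (chr16:82626803-83800640, plus strand) are on the same chromosome. The others are CDH2 (chr18:27950966-28177446, minus strand), CDH4 (chr20:61252426-61940617), CDH6 (chr5:31193750-31329146), CTNND1 (chr11:57753243-57819546) and VIM (chr10:17228259-17237593), which are on the plus strand except CDH2. All values are counts over the merged exons of a gene. Antisense genes share exon bases with 6 of the 9 genes. VIM-AS1 shares 641 bases with VIM, CDH3-AS1 shares 694 bases with CDH3 and CDH13-AS2 shares 141 bases with CDH13, and these held at most 15, 33 and 7 counts in a library. Antisense genes without a symbol share 619 bases with VIM, 347 with CDH1, 136 with CDH2 and 125 with CDH6, and held at most 7 counts. Genes on the same strand share exon bases with CDH6, CDH11 and CTNND1 and held at most 3 counts. Whether counting used strand is not given in the sources used here.

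The start regions of VIM and CDH2 are shown because only these genes had a RefSeq entry near the 5′ end in the count files. RefSeq windows of 300 bases (GRCh38.p14, 250 bases before to 50 after the start site) held an entry with its start site within 500 bases of the 5′ end in the count files for these 2 of the 9 genes. The windows are printed 5′ to 3′ on the gene's strand, with matches to the searched motifs in capitals.
VIM, chr10:17227991-17228290, plus strand: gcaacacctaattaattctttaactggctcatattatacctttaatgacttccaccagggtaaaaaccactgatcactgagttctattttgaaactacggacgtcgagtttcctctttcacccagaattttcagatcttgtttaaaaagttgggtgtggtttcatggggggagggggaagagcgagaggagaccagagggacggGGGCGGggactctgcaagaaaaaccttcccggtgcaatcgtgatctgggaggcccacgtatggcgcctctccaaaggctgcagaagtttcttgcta
CDH2, chr18:28177081-28177380, minus strand: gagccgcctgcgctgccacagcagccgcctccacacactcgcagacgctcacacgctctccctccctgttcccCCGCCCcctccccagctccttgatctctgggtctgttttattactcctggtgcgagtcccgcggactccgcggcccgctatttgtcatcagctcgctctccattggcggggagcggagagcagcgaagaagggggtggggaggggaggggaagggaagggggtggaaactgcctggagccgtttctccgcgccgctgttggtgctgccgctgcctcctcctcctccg

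Both strands were searched for the GC box GGGCGG, which reads CCGCCC on the other strand, the E-box CAGGTG that SNAIL and ZEB factors bind, the AP-1 site TGANTCA and the TATA box TATAAA. Each window held 1 GC box, starting at position -46 in VIM and at -177 in CDH2 relative to the start site, a motif found in 45% of the 35116 RefSeq windows of this length. Neither held the E-box (20.6% of all windows), the AP-1 site (7.71%) or the TATA box (11.5%). The CDH2 window had 67% G and C with 23 CpG dinucleotides, and the VIM window had 48% with 10, around a median of 58.7% and 14 over all windows. These matches describe the letters only.

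The libraries held 16334937 to 23399259 gene counts, with 3.86% to 5.82% of all counts on ERCC spike-ins. Both split by group. The FaDu parental and FaDu AfaR libraries held 20156109 to 23399259 gene counts, with ERCC shares of 5.64% to 5.82%. The FaDu ErlR and Cal27 libraries held 16334937 to 16689855, each with a smaller ERCC share, down to 3.86%. Comparisons of FaDu ErlR with the other FaDu groups, of the parental lines, and of the ErlR change between the lines cross this split. Its part in their values was not tested. Every resistant library correlated better, over genes on the log2 scale, with the parental mean of its own labelled line than with that of the other line. The parental libraries did too, but each is part of its own line's mean, so this says little about them. Pairs of replicates differed by more than sampling noise in every group, and none looked like a repeat deposit of 1 library. Levels are given as CPM, a library's counts divided by its total in units of 1e+06 counts, scaled by the trimmed mean of M values (TMM), and levels of different genes are compared only per kilobase of exon (RPKM). Changes were tested with the edgeR quasi-likelihood test with Benjamini-Hochberg adjustment over all tested genes, and a gene was called when its adjusted p was under 0.05 and its log2 fold change exceeded 1 in size. Shares of all genes called refer to this rule. Counts at an unadjusted p under 0.05 carry no fold limit unless stated, and the share of all genes at that limit was not taken. P-values measure the spread between these replicate libraries. CDH6 held 2 to 8 counts in each library, or 0.0970 to 0.428 CPM, and was too low to be tested, so 8 of the 9 genes entered every test.

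**Figure D1:**
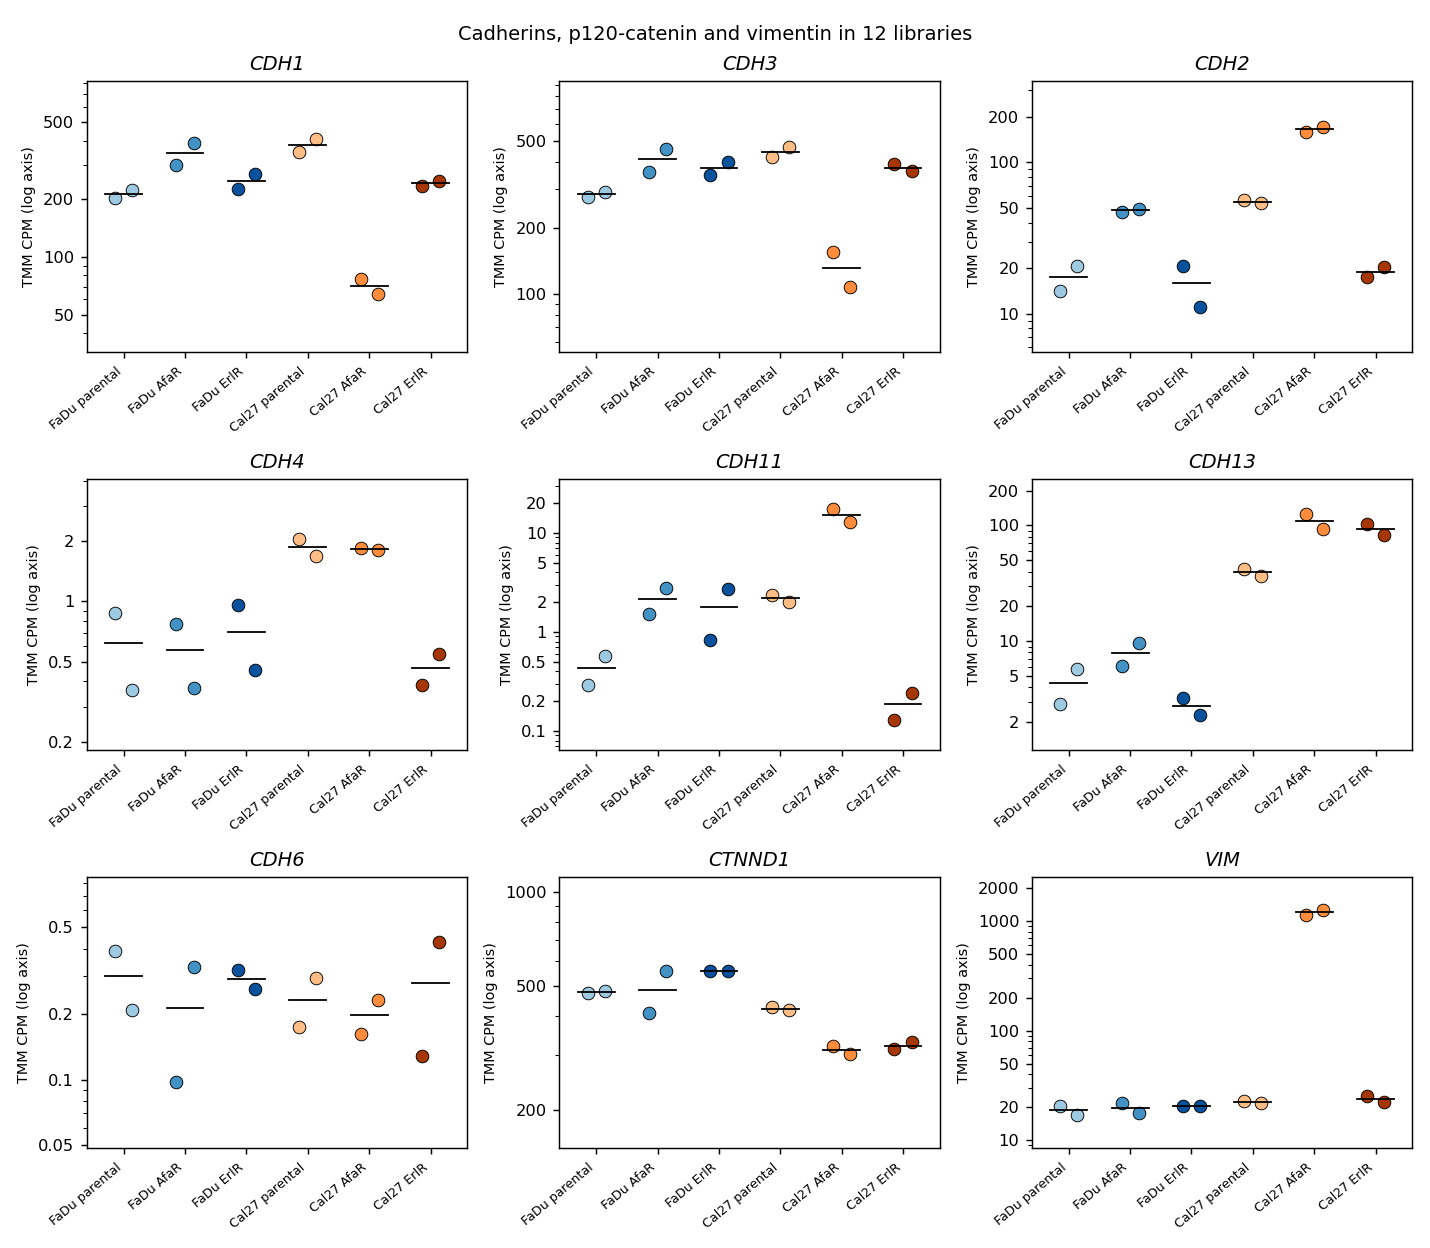
Level of each gene in 12 libraries, as TMM-scaled CPM on a log axis that differs between panels; each point is a library and each bar the mean of the 2 replicates. VIM stands at 1123 and 1269 CPM in Cal27 AfaR and at 17.0 to 25.3 CPM in the other 10 libraries, while CDH1 and CDH3 are lowest in Cal27 AfaR.

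Per length, CDH1 and CDH3 made up most of the transcript of the 7 cadherins of the set in the parental cells of both lines. Cadherins outside the set, such as CDH5 with a mean of 30.5 CPM in Cal27 parental, were not in the sum. In FaDu parental, CDH3 made up 54.5% ± 1.40 and CDH1 40.7% ± 0.409 of the summed RPKM of the 7 cadherins (SD, n = 2), and CDH2 made up 4.19% ± 0.865. The Cal27 parental cells had the same order, with 48.3% ± 0.00184 for CDH3, 41.4% ± 1.25 for CDH1, 7.58% ± 0.778 for CDH2 and 2.40% ± 0.412 for CDH13. The remaining cadherins of the set, CDH4, CDH6 and CDH11, each took less than 0.174% in either parental line. CTNND1 stood at 54.5 ± 0.553 RPKM in FaDu parental and 48.1 ± 0.922 RPKM in Cal27 parental, and VIM at 3.66 ± 0.512 and 4.35 ± 0.163 RPKM.

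The parental lines differed in their minor cadherins, with 4 of the 8 tested genes called, all higher in Cal27, where 31.6% of 16240 genes were called in either direction. CDH13 stood at 2.86 and 5.77 CPM in FaDu parental and at 42.0 and 36.8 CPM in Cal27 parental, a log2 difference of 3.20 (SE 0.30, adjusted p = 2.91e-06, edgeR). CDH2 was at 14.2 and 20.8 CPM against 56.1 and 54.3 CPM, a log2 difference of 1.66 (SE 0.24, adjusted p = 7.47e-05, edgeR). CDH11 was at 0.291 and 0.572 CPM against 2.39 and 1.98 CPM, which rests on 6 and 11 counts in the FaDu libraries (log2 difference 2.33, SE 0.58, edgeR adjusted p = 0.00429). For all 3 genes both Cal27 libraries lay above both FaDu libraries. CDH4 was also called higher in Cal27, by 1.57 on the log2 scale (SE 0.53, edgeR adjusted p = 0.0229), from 7 and 18 counts against 29 and 35. That call was lost without FaDu parental replicate 2 (adjusted p = 0.175, edgeR) or without either Cal27 parental library (edgeR adjusted p = 0.0956 without replicate 1 and 0.0503 without replicate 2).

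CDH1 and CDH3 were also higher in Cal27 parental cells, by less than the fold limit, with log2 differences of 0.84 (SE 0.15, edgeR adjusted p = 0.000476) and 0.64 (SE 0.17, edgeR adjusted p = 0.00564), so that 6 of 8 passed the adjusted p alone, against 55.6% of all genes. VIM did not differ at this threshold, with a log2 difference of 0.25 (95% CI -0.06 to 0.56, edgeR adjusted p = 0.157), nor did CTNND1, with -0.18 (95% CI -0.46 to 0.11, edgeR adjusted p = 0.265). Scaling by the ERCC spike-ins raised the median difference of all genes from 0.04 to 0.62 and gave 0.40 for CTNND1 (edgeR adjusted p = 0.0413) and 0.83 for VIM (edgeR adjusted p = 0.00048).

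Among the 4 comparisons with parental cells, Cal27 AfaR had the most calls and the largest change, in VIM. Of the 8 tested genes 6 were called, 4 higher and 2 lower, where 19.6% of 15269 genes were called. VIM counted 395 and 374 reads in the parental libraries and 20798 and 21866 in the AfaR libraries, or 23.0 and 21.8 CPM against 1123 and 1269 CPM. That is a 53.4-fold rise (log2 fold change 5.74, SE 0.16, 95% CI 5.37 to 6.11, edgeR adjusted p = 4.18e-07). CDH1 fell, from 349 and 407 CPM to 76.9 and 63.8 CPM (log2 fold change -2.42, SE 0.15, edgeR adjusted p = 7.71e-06). CDH3 fell alongside it, from 419.6 and 469 CPM to 155 and 108 CPM (log2 fold change -1.76, SE 0.18, edgeR adjusted p = 0.000109). No AfaR library overlapped a parental library for these 3 genes, and both epithelial cadherins kept at least 1099 counts in each library.

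The cadherins that rose in Cal27 AfaR were CDH2, CDH11 and CDH13. CDH2 went from 56.1 and 54.3 CPM to 159 and 172 CPM, a 3.00-fold rise (log2 fold change 1.59, SE 0.13, edgeR adjusted p = 3.35e-05). CDH11, an OB-cadherin of osteoblasts and fibroblasts, went from 2.39 and 1.98 CPM to 17.6 and 12.8 CPM (log2 fold change 2.80, SE 0.30, edgeR adjusted p = 0.000124). CDH13 went from 42.0 and 36.8 CPM to 127 and 93.6 CPM (log2 fold change 1.48, SE 0.18, edgeR adjusted p = 0.000287). Again the groups did not overlap. CTNND1 fell by less than the fold limit, from 429 and 417 CPM to 321 and 303 CPM (log2 fold change -0.44, SE 0.12, edgeR adjusted p = 0.0196). CDH4 stood at 2.04 and 1.69 CPM in the parental and 1.84 and 1.80 CPM in the AfaR libraries, with a log2 fold change of -0.04 (95% CI -0.91 to 0.84).

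With CTNND1, 7 of the 8 genes passed the adjusted p alone, against 37.6% of all genes. The median log2 fold change was 0.72 over the 8 genes and 0.00 over all genes (-9.47e-06). All 6 calls in Cal27 AfaR held in each fit that left out 1 library, whereas CTNND1 did not pass in any of these 4 fits (edgeR adjusted p = 0.0531 to 0.116). In bulk RNA, fewer cells of a type and less RNA per cell cannot be told apart, and this applies to each fall given here.

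**Figure D2:**
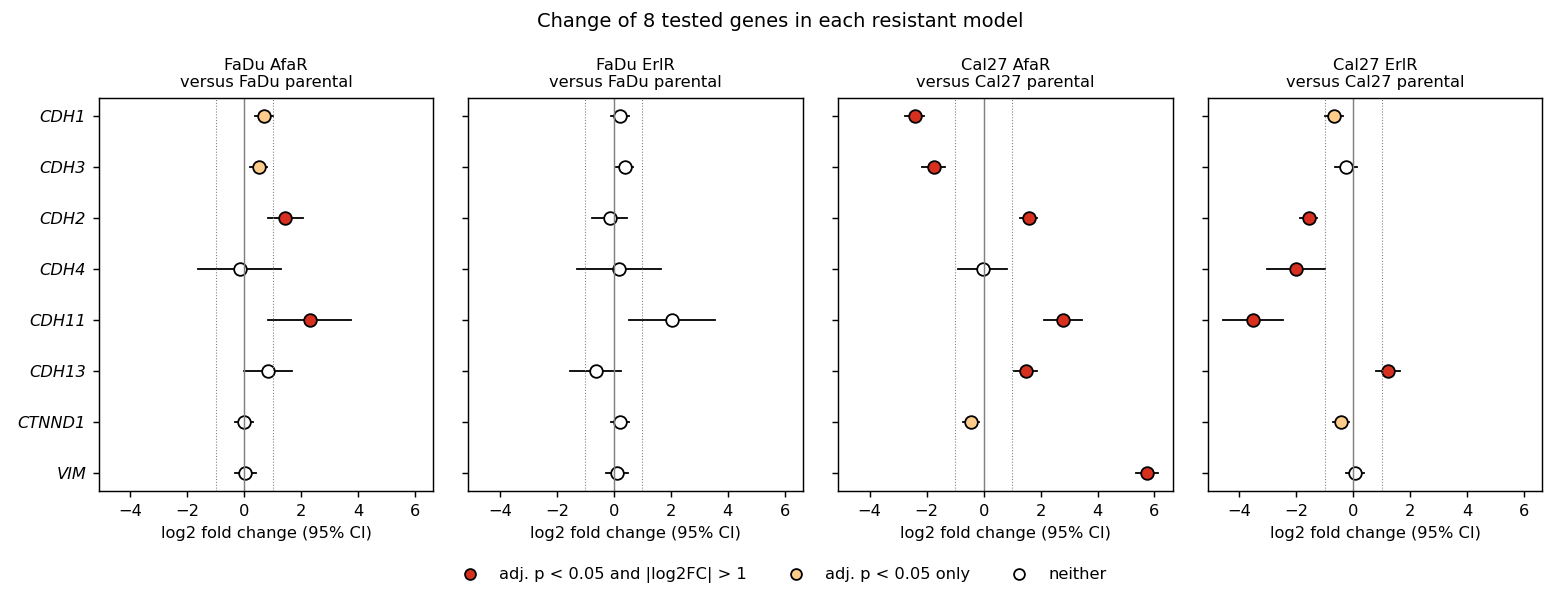
Log2 fold change of the 8 tested genes against the parental cells of the same line, with 95% confidence intervals; red points were called, orange points passed the adjusted p only, and dotted lines mark a log2 fold change of 1 in either direction. VIM is at 5.74 in Cal27 AfaR and between 0.04 and 0.11 in the other 3 models, and CDH1 is at -2.42 in Cal27 AfaR and at 0.69 in FaDu AfaR.

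Per length, these changes reordered the 7 cadherins of the set in Cal27 AfaR. CDH2 made up 43.7% ± 6.66 of the summed cadherin RPKM (SD, n = 2), ahead of CDH3 with 27.1% ± 4.41, CDH1 with 14.7% ± 0.569 and CDH13 with 12.7% ± 1.51. In the other 5 groups CDH3 held 48.3% to 57.8% and CDH1 34.9% to 42.1% on average. The ratio of CDH1 to CDH2 in RPKM was 0.296 and 0.389 in the Cal27 AfaR libraries, against 4.98 and 6.02 in Cal27 parental. Summed over the 7 cadherins, Cal27 AfaR had 77.1 ± 7.20 RPKM and Cal27 parental 148 ± 11.7 RPKM, so the gain of CDH2, CDH11 and CDH13 was smaller than the loss of CDH1 and CDH3. VIM reached 232 ± 20.0 RPKM in Cal27 AfaR, 20.7 ± 4.48 times the CDH1 level of the same libraries, where the other groups had means of 0.0704 to 0.119 times.

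**Figure D3:**
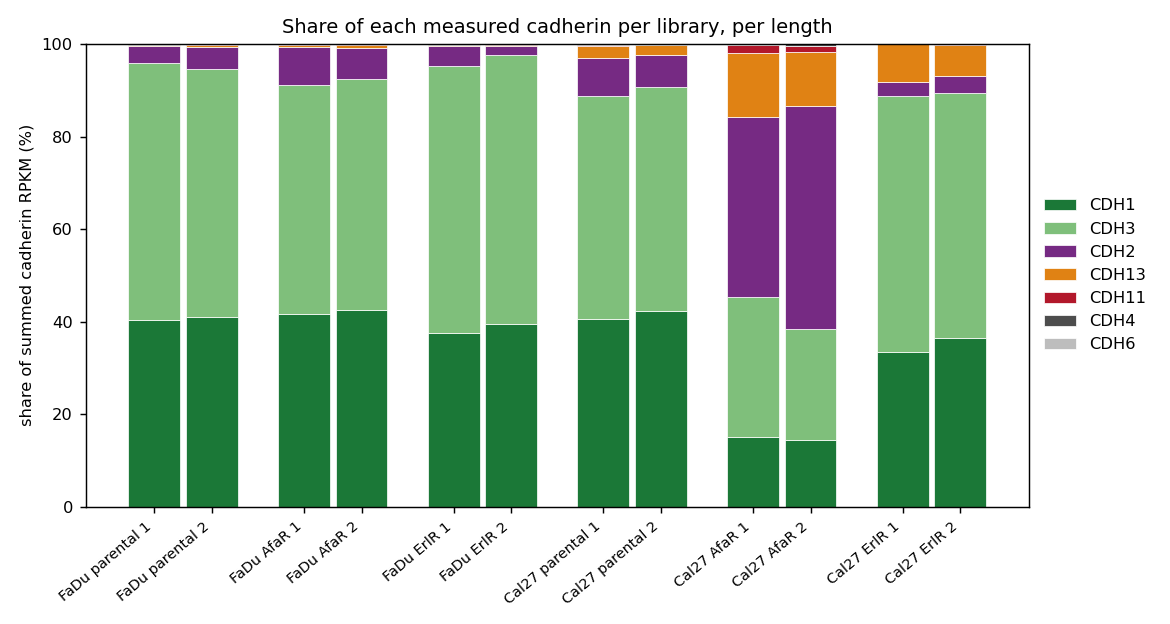
Share of each of 7 cadherins in their summed RPKM, in percent, one stacked bar per library. CDH1 and CDH3 fill most of every bar except those of Cal27 AfaR, where CDH2 averages 43.7%.

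CDH2, CDH11 and CDH4 fell in Cal27 ErlR, and VIM was not called. Of the 8 tested genes 4 were called, 1 higher and 3 lower, where 13.5% of all genes were called. CDH2 fell from 56.1 and 54.3 CPM to 17.4 and 20.4 CPM (log2 fold change -1.57, SE 0.14, edgeR adjusted p = 0.000122). CDH11 fell from 41 and 34 counts to 2 and 4 counts, or to 0.128 and 0.244 CPM (log2 fold change -3.52, 95% CI -4.57 to -2.46, edgeR adjusted p = 0.00104). CDH4, an R-cadherin of retina and brain, fell from 35 and 29 counts to 6 and 9 (log2 fold change -2.00, SE 0.46, edgeR adjusted p = 0.0115). The parental and ErlR libraries did not overlap for these genes, but the CDH4 call was lost without Cal27 parental replicate 1 (edgeR adjusted p = 0.0526) and without Cal27 ErlR replicate 1 (edgeR adjusted p = 0.0717).

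The gene called higher in Cal27 ErlR was CDH13, which rose from 42.0 and 36.8 CPM to 104 and 83.4 CPM (log2 fold change 1.22, SE 0.18, edgeR adjusted p = 0.00158). CDH1 fell from 349 and 407 CPM to 234 and 247 CPM, by 0.68 on the log2 scale (SE 0.14, edgeR adjusted p = 0.0084), and CTNND1 by 0.42 (SE 0.12, edgeR adjusted p = 0.0315), to 314 and 329.7 CPM. CDH3 had a log2 fold change of -0.26 (95% CI -0.66 to 0.14, edgeR adjusted p = 0.298). VIM stood at 25.3 and 22.2 CPM, overlapping the parental 23.0 and 21.8 CPM (log2 fold change 0.06, 95% CI -0.26 to 0.38, edgeR adjusted p = 0.794). Counting CDH1 and CTNND1, 6 of 8 genes passed the adjusted p alone, against 27.6% of all genes. CTNND1 did not pass in any of the 4 fits that left out 1 library (edgeR adjusted p = 0.0993 to 0.169), with ERCC scaling (edgeR adjusted p = 0.0532) or with no filter (edgeR adjusted p = 0.0561). CDH1 did not pass without Cal27 parental replicate 2 or Cal27 ErlR replicate 1 (edgeR adjusted p = 0.0743 and 0.0554).

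Set directly against each other, the 2 resistant Cal27 models differed in 6 of 8 genes, where 27.1% of all genes were called. AfaR had more VIM, CDH2, CDH4 and CDH11 and less CDH1 and CDH3 than ErlR. The log2 difference was 5.68 for VIM (SE 0.16, edgeR adjusted p = 3.07e-07), 6.31 for CDH11 (SE 0.42, edgeR adjusted p = 6.56e-06) and 3.16 for CDH2 (SE 0.14, edgeR adjusted p = 1.34e-06). CDH11 had only 2 and 4 counts in the ErlR libraries. CDH4 differed by 1.97 (edgeR adjusted p = 0.00603), CDH1 by -1.75 (edgeR adjusted p = 2.48e-05) and CDH3 by -1.50 (edgeR adjusted p = 0.000177). CDH13 and CTNND1 were not called, with differences of 0.26 (95% CI -0.13 to 0.66) and -0.02 (95% CI -0.29 to 0.26).

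FaDu AfaR cells had more CDH2 and CDH11 transcript than parental cells. Of the 8 tested genes 2 were called, both higher, where 7.43% of 15092 genes were called. CDH2 rose from 14.2 and 20.8 CPM to 47.4 and 49.3 CPM, 2.73-fold (log2 fold change 1.45, SE 0.27, edgeR adjusted p = 0.0103). Below the fold limit CDH1 rose, from 201 and 222 CPM to 300.3 and 389 CPM (log2 fold change 0.69, SE 0.14, edgeR adjusted p = 0.0154), and so did CDH3, from 278 and 292 CPM to 361 and 460.4 CPM (log2 fold change 0.51, SE 0.13, edgeR adjusted p = 0.0307). For these 3 genes both AfaR libraries lay above both parental libraries. By length, the shares in FaDu AfaR were CDH3 at 49.7% ± 0.261, CDH1 at 42.1% ± 0.687 and CDH2 at 7.46% ± 1.03 of the cadherin RPKM, and the summed cadherin RPKM was 132 ± 22.0 against 83.9 ± 5.06 in FaDu parental.

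CDH11 was called higher in FaDu AfaR on small counts, 31 and 68 against 6 and 11 (log2 fold change 2.30, 95% CI 0.84 to 3.76, edgeR adjusted p = 0.0398). CDH13 was at 6.06 and 9.63 CPM against 2.86 and 5.77 CPM (log2 fold change 0.85, 95% CI 0.01 to 1.69, edgeR adjusted p = 0.14). VIM stayed low, at 21.7 and 17.6 CPM against 20.7 and 17.0 CPM (log2 fold change 0.04, 95% CI -0.34 to 0.42). CTNND1 was at 408 and 559 CPM, on either side of the parental 476 and 483 CPM (log2 fold change -0.01, 95% CI -0.32 to 0.31), and CDH4 had 16 and 9 counts against 18 and 7.

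With CDH1 and CDH3, 4 of 8 genes passed the adjusted p alone in FaDu AfaR, against 17.9% of all genes. All 4 depended on single libraries. CDH1 did not pass without FaDu parental replicate 1, FaDu parental replicate 2 or FaDu AfaR replicate 2 (edgeR adjusted p = 0.144, 0.0586 and 0.0741), and CDH3 did not pass in the same 3 fits (edgeR adjusted p = 0.212, 0.118 and 0.139). CDH2 was not called without FaDu parental replicate 1 (log2 fold change 1.19, edgeR adjusted p = 0.0933) or without FaDu AfaR replicate 2 (1.42, edgeR adjusted p = 0.0508). The CDH11 call was lost without either of these (edgeR adjusted p = 0.23 and 0.21) and without FaDu parental replicate 2 (edgeR adjusted p = 0.0908). FaDu AfaR replicate 2 was the library with the highest summed level of squamous markers, 14161 CPM against 7218 CPM in its replicate. KRT5, the highest of these markers, varied between replicates in both groups, at 6452 ± 3055 CPM in FaDu AfaR and 5433 ± 2351 CPM in FaDu parental (SD, n = 2).

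No gene of the set was called in FaDu ErlR, by edgeR or by DESeq2, where 2.05% of all genes were called, and none passed the adjusted p, against 4.18%. With ERCC scaling, which raised the median log2 fold change of all genes to 0.49, 5 of 8 passed: CDH11 was called (2.47, edgeR adjusted p = 0.00862), and CDH3 (0.86), CDH1 (0.70), CTNND1 (0.70) and VIM (0.60) stayed below the fold limit. With no filter on low counts 2 of 8 passed, CDH11 (2.01, called) and CDH3 (0.36). An unadjusted p under 0.05, with no fold limit, was reached by 2 of 8, CDH3 and CDH11. CDH3 stood at 349 and 399 CPM against 278 and 292 CPM (log2 fold change 0.38, 95% CI 0.08 to 0.68, edgeR adjusted p = 0.138). CDH11 had 13 and 42 counts against 6 and 11 (log2 fold change 2.03, 95% CI 0.52 to 3.54, edgeR adjusted p = 0.122), and its replicates differed from each other more than the lower one differed from the parental cells. CDH1 was at 226 and 269.7 CPM, CDH2 at 20.8 and 11.1 CPM and VIM at 20.5 and 20.7 CPM. The interval of the log2 fold change was -0.11 to 0.54 for CDH1, -0.76 to 0.47 for CDH2 and -0.27 to 0.50 for VIM. CDH13 was at 3.26 and 2.29 CPM (log2 fold change -0.64, 95% CI -1.55 to 0.26) and CTNND1 at 558 and 557 CPM (0.21, 95% CI -0.11 to 0.52).

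Between the FaDu models, 2 of 8 genes were called, where 5.94% of all genes were. CDH2 was higher in AfaR than in ErlR by 1.59 on the log2 scale (SE 0.27, edgeR adjusted p = 0.00736), a difference called in every fit that left out 1 library. CDH13 was higher by 1.49 (SE 0.39, edgeR adjusted p = 0.0345) but was not called without FaDu AfaR replicate 2, FaDu ErlR replicate 1 or FaDu ErlR replicate 2 (edgeR adjusted p = 0.184, 0.0618 and 0.169). The CDH1 difference of 0.47 did not pass (edgeR adjusted p = 0.0552).

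Whether a change differed between the lines was tested as an interaction over all 12 libraries. For the AfaR models 3 of 8 genes differed, where 12.3% of 16240 genes did. CDH1 changed by 3.13 more on the log2 scale in FaDu than in Cal27 (SE 0.22, edgeR adjusted p = 2.49e-06), CDH3 by 2.29 more (SE 0.24, edgeR adjusted p = 4.91e-05) and VIM by -5.68 (SE 0.21, edgeR adjusted p = 2.33e-08). CDH2, called higher in both AfaR models, had a difference of -0.12 (95% CI -0.81 to 0.58), CDH11 one of -0.47 (95% CI -2.16 to 1.21) and CDH13 one of -0.61 (95% CI -1.48 to 0.27). These intervals are wide, and they do not show that the changes were equal.

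For the ErlR models 3 of 8 genes differed between the lines, where 10.9% of all genes did. This comparison crosses the split in gene counts and ERCC share, whose part in it was not tested. The difference, FaDu minus Cal27, was 5.54 for CDH11 (SE 0.92, edgeR adjusted p = 0.00206), 1.41 for CDH2 (SE 0.34, edgeR adjusted p = 0.0128) and -1.87 for CDH13 (SE 0.44, edgeR adjusted p = 0.0123). The CDH11 value rests on small counts, 2 and 4 in Cal27 ErlR and 6 and 11 in FaDu parental. CDH1 and CTNND1 passed the adjusted p below the fold limit, with 0.88 (edgeR adjusted p = 0.0139) and 0.61 (edgeR adjusted p = 0.0379), but CTNND1 passed in none of the 8 fits that left out 1 library, and CDH1 in all but 3 of them (edgeR adjusted p = 0.0549 to 0.0628 in these). The CDH2 difference was not called without FaDu parental replicate 1 or FaDu ErlR replicate 1 (edgeR adjusted p = 0.0573 and 0.0515), nor the CDH13 difference without FaDu parental replicate 2 or FaDu ErlR replicate 2 (edgeR adjusted p = 0.0757 and 0.0538).

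**Figure D4:**
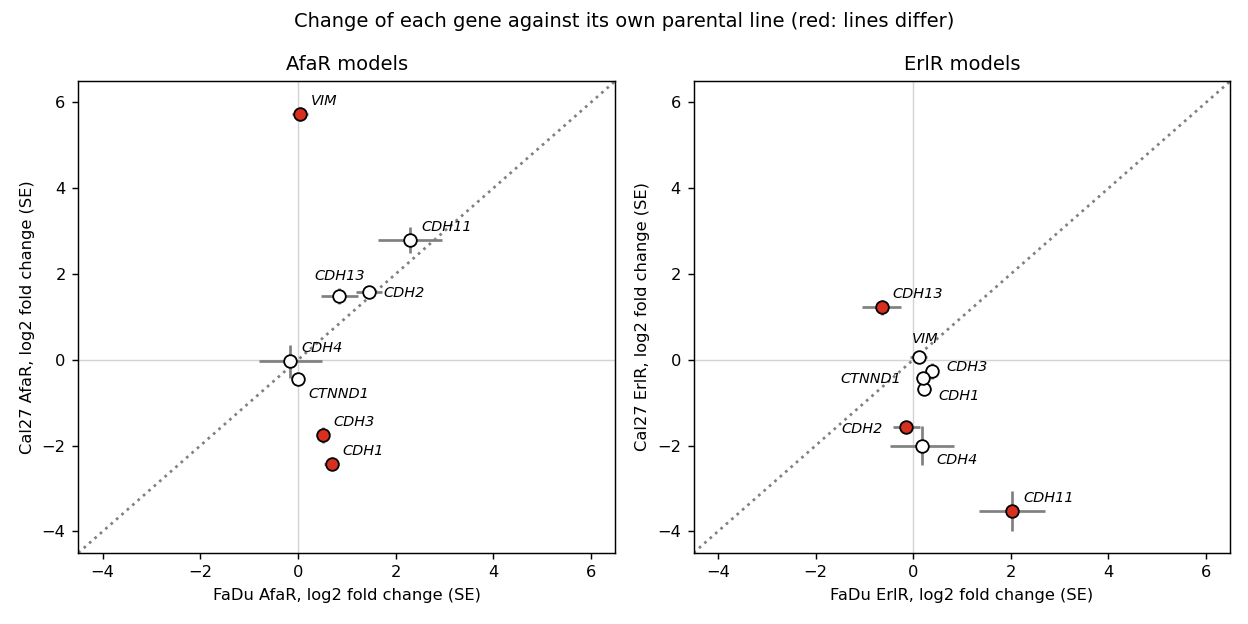
Log2 fold change of each gene against its own parental cells in FaDu (x axis) and in Cal27 (y axis), with standard errors, for the AfaR models (left) and the ErlR models (right); the dotted line marks equal change and red points were called in the test of the difference. CDH1, CDH3 and VIM lie off the line for AfaR, and CDH2, CDH11 and CDH13 for ErlR.

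Ordered by mean CPM, the 6 groups fell differently for each gene. CDH1 ran from Cal27 AfaR (70.3) through FaDu parental (211), Cal27 ErlR (240.3), FaDu ErlR (248) and FaDu AfaR (345) to Cal27 parental (378), where Cal27 ErlR and FaDu ErlR overlapped, as did FaDu AfaR and Cal27 parental. CDH2 ran from FaDu ErlR (15.9), FaDu parental (17.5) and Cal27 ErlR (18.9), which overlapped in turn, to FaDu AfaR (48.3), Cal27 parental (55.2) and Cal27 AfaR (165), which did not. The CDH3 order began with Cal27 AfaR (131), FaDu parental (285) and FaDu ErlR (374), and the libraries of FaDu ErlR, Cal27 ErlR, FaDu AfaR and Cal27 parental overlapped from each group to the next. CDH13 split by line, since each Cal27 group lay above each FaDu group. CTNND1 had the narrowest range among the 8 tested genes, 1.79-fold from the lowest to the highest group mean, and was lowest in the resistant Cal27 groups at 312 and 322 CPM.

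CDH1 and CDH3, which lie side by side, both fell in Cal27 AfaR, and the genes around them were read as well. In Cal27 AfaR, 1 of the 10 nearest tested genes, 5 on each side of the pair, was called, namely the hyaluronan synthase HAS3 (log2 fold change -1.60, edgeR adjusted p = 0.00213). That count was near the share of all genes called there, 19.6%. The median log2 fold change of the 10 neighbours was -0.53, with 1 passing the adjusted p upward and 5 downward, against 37.6% of all genes in either direction. CDH1 at -2.42 and CDH3 at -1.76 lay below every neighbour, as the lowest neighbour was at -1.60. HAS3 was instead higher in FaDu ErlR and in Cal27 ErlR (1.14 and 1.25, edgeR adjusted p = 0.0123 and 0.00787), where the CDH3 values were 0.38 and -0.26.

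The genes most like each of 4 members over the 6 groups were found by the root-mean-square difference of centred log2 group means among 10557 genes. FBN1, OLFML2B and VCAN were nearest to VIM (0.22, 0.32 and 0.38, where the median gene was at 2.24). Each reached the required mean of 5 CPM only through Cal27 AfaR, the group in which VIM was high. Their likeness to VIM is therefore a description and no separate support. FBN1, which encodes the microfibril protein fibrillin-1, stood at 60.6 ± 2.89 CPM in Cal27 AfaR and at 0.840 to 1.26 CPM on average in the other groups, and the proteoglycan gene VCAN at 53.6 ± 6.80 and 0.991 to 1.71 CPM. PBXIP1, TRANK1 and FCGRT were nearest to CDH2 (0.17, 0.17 and 0.22, median gene 1.32). FCGRT, the neonatal Fc receptor gene, stood at 47.2 ± 8.75 CPM in Cal27 AfaR, 17.6 ± 9.09 in Cal27 parental and 11.4 ± 3.53 in FaDu AfaR. Its means were 4.36 to 6.69 CPM in the other 3 groups. Replicates of TRANK1 also lay far apart, at 19.6 ± 11.4 CPM in Cal27 parental and 15.3 ± 11.2 in FaDu AfaR. SPINT1-AS1, USP43 and SH3YL1 were nearest to CDH1 (0.18, 0.18 and 0.19, median gene 0.87), and USP43, HMOX2 and ZNF440 to CDH3 (0.16, 0.17 and 0.18, median gene 0.70). USP43, a ubiquitin-specific protease gene, was thus near both epithelial cadherins, at 4.13 ± 0.725 CPM in Cal27 AfaR and 13.4 to 18.8 CPM in the other groups.

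The transcription factors that bind E-boxes of cadherin promoters were measured in the same libraries. In Cal27 AfaR, 3 of 5 tested EMT factors were called higher and 1 lower, where 19.6% of all genes were called. ZEB1 rose from a mean of 0.379 to 15.9 CPM (log2 fold change 5.37, edgeR adjusted p = 9.54e-06), ZEB2 from 1.72 to 30.0 CPM (4.12, edgeR adjusted p = 6.33e-06) and TWIST1 from 3.15 to 50.6 CPM (4.00, edgeR adjusted p = 2.83e-06). SNAI1 fell, from 2.80 to 0.440 CPM (-2.63, edgeR adjusted p = 0.00371), and SNAI2 passed the adjusted p below the fold limit (0.996, edgeR adjusted p = 0.00205); both were named after their values were seen. The median log2 fold change of the list was 4.00, where that of all genes was 0.00 (-9.47e-06).

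In Cal27 ErlR, where 13.5% of all genes were called, the list had 1 of 5 higher, SNAI2, which rose from 31.5 to 106 CPM (1.73, edgeR adjusted p = 0.000274), and 1 lower, SNAI1 (-1.64, edgeR adjusted p = 0.0313). In FaDu AfaR, where 7.43% were called, 1 of 6 was higher, TWIST1, from 3.14 to 7.50 CPM (1.24, edgeR adjusted p = 0.0266), and 1 lower, SNAI1 (-1.18, edgeR adjusted p = 0.0413), which DESeq2 did not call (adjusted p = 0.0784). FaDu ErlR had 0 of 6 called by edgeR, against 2.05% of all genes, and 1, TWIST1, called by DESeq2 (1.21, adjusted p = 0.0157). At an unadjusted p under 0.05 there were 3, with no share of all genes taken at that limit. Between the parental lines, where 31.6% of all genes were called, 1 of 6 was called, TWIST2, lower in Cal27, at 14.3 CPM in FaDu parental and 0.0291 CPM in Cal27 parental.

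Among 16 tested catenins and adherens junction partners, Cal27 AfaR had 1 called higher and 5 lower, 6 in all, where 19.6% of all genes were called. The immunoglobulin-like adhesion receptors moved apart, since NECTIN4 fell from 12.0 to 0.633 CPM (-4.21, edgeR adjusted p = 0.000147) while NECTIN3 rose from 4.55 to 46.8 CPM (3.36, edgeR adjusted p = 3.78e-06). PLEKHA7, which binds p120-catenin at the junction, fell from 12.1 to 1.39 CPM (-3.11, edgeR adjusted p = 0.000351). The other 3 called lower, named after their values were seen, were NECTIN1 (-2.13, edgeR adjusted p = 3.29e-05), JUP, which encodes plakoglobin (-2.06, edgeR adjusted p = 5.03e-05), and ARVCF, a p120-catenin relative (-1.03, edgeR adjusted p = 0.0151). The median of the list was -0.44.

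PLEKHA7 was called lower in FaDu AfaR, from 11.4 to 3.73 CPM (-1.62, edgeR adjusted p = 0.0214), the 1 of 16 called there against 7.43% of all genes. In Cal27 ErlR 2 of 16 were called, against 13.5% of all genes, namely PLEKHA7 (-1.69, edgeR adjusted p = 0.00808) and NECTIN4 (-2.04, edgeR adjusted p = 0.00494), both lower. FaDu ErlR had 1 of 16 called against 2.05% of all genes, the actin-binding LIMA1 (1.03, edgeR adjusted p = 0.0201). The medians were 0.03 and 0.09 in FaDu AfaR and ErlR and -0.26 in Cal27 ErlR. Between the parental lines 3 of 16 were called higher and 3 lower in Cal27, against 31.6% of all genes called, led by ARVCF (2.43), NECTIN1 (-2.40) and CTNNAL1 (1.88). These 4 counts were close to what the shares of all genes give for 16 genes.

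Of 9 tested genes that process or turn over cadherins, Cal27 AfaR had 1 called against 19.6% of all genes, the metalloprotease ADAM15, lower (log2 fold change -1.16, edgeR adjusted p = 0.000149), and the other 3 models and the parental comparison had 0 called by edgeR or by DESeq2. An unadjusted p under 0.05 was reached by 5 of them in FaDu ErlR, 2 in FaDu AfaR, 4 in Cal27 ErlR and 4 between the parental lines. Of all genes, 2.05% were called in FaDu ErlR, 7.43% in FaDu AfaR, 13.5% in Cal27 ErlR and 31.6% between the parental lines. These shares belong to the counts of 0 called. For the counts at an unadjusted p, no share of all genes was taken. Among 10 tested intermediate filament and linker genes other than VIM, Cal27 AfaR had 2 called higher, a share near the 19.6% of all genes, the cytolinker PLEC (1.10, edgeR adjusted p = 0.00424) and SYNM, which encodes a vimentin partner (1.03, edgeR adjusted p = 0.00433). PLEC was also higher in Cal27 ErlR (1.10, edgeR adjusted p = 0.0064), where VIM was not, and INA (-1.39, edgeR adjusted p = 0.0468) and NES (-1.07, edgeR adjusted p = 0.0196) were lower, against 13.5% of all genes called, while DESeq2 did not call INA (adjusted p = 0.0935). Both FaDu models had 0 of 11 called by edgeR, near the shares of all genes, 7.43% in AfaR and 2.05% in ErlR. An unadjusted p under 0.05 was reached by 2 in AfaR (0 called by DESeq2) and 7 in ErlR (1 called by DESeq2, SYNM). No share of all genes was taken at this limit. Between the parental lines 2 of 11 were called, both lower in Cal27, against 31.6% of all genes.

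Of 16 further cadherin genes, 5 were high enough to be tested in FaDu and 2 in Cal27. CDH5, which encodes VE-cadherin of endothelium, averaged 30.5 CPM in Cal27 parental and 32.2 CPM in Cal27 AfaR but 2.62 CPM in Cal27 ErlR, the 1 call of the list there (log2 fold change -3.55, edgeR adjusted p = 0.00051). CDH24 was tested in both lines, at 12.7 to 20.9 CPM over all libraries, and was called in no resistant model. CDH9 had 0 counts in every library. FaDu AfaR had 1 call, CDH17, with means of 0.719 CPM in the parental and 0.0243 CPM in the AfaR libraries, for which DESeq2 gave no adjusted p. FaDu ErlR and Cal27 AfaR had 0 by edgeR and by DESeq2, with 2 and 0 at an unadjusted p under 0.05, and between the parental lines CDH5 was higher in Cal27 (log2 difference 3.63, edgeR adjusted p = 0.000534) and CDH8 (-3.29, edgeR adjusted p = 0.00103) and CDH17 were lower, the last with 0 counts in both Cal27 parental libraries.

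**Figure D5:**
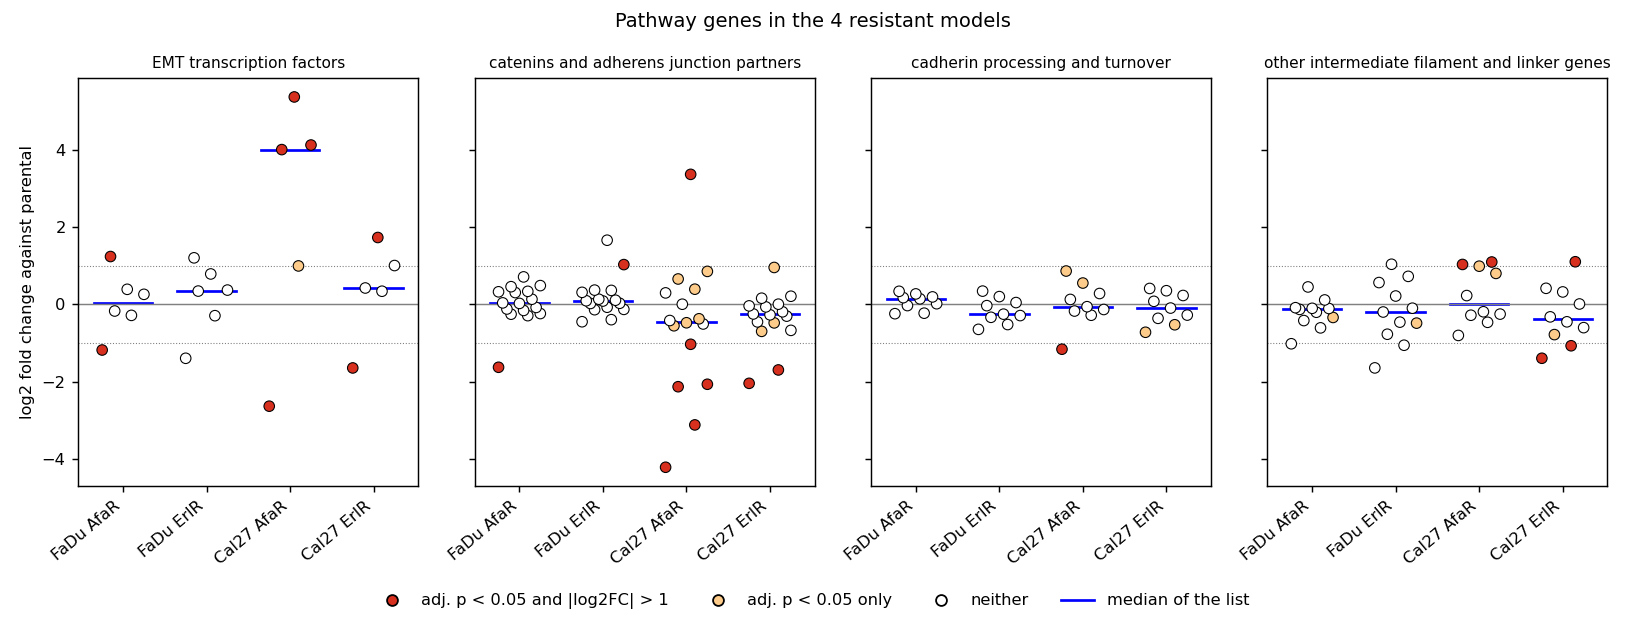
Log2 fold change of each tested gene of 4 lists against the parental cells of the same line, one column per resistant model; red points were called, orange points passed the adjusted p only, white points passed neither, and blue bars are list medians. The EMT transcription factors have a median of 4.00 in Cal27 AfaR, while the cadherin processing genes stay between -1.16 and 0.86 there.

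Markers of the labelled squamous tissue and of other cell types were read beside these results. All 10 squamous markers were detected in every library, with summed levels of 4581 and 5568 CPM in Cal27 parental, 5453 and 5511 CPM in Cal27 ErlR and 1296 and 1559 CPM in Cal27 AfaR. Against 19.6% of all genes called in Cal27 AfaR, 7 of 10 markers were called lower there (median log2 fold change -2.79). They were led by KRT14 (-7.24), KRT6A (-4.62) and DSG3 (-3.69), of which the keratins have close paralogs and are uncertain where reads were split. In Cal27 ErlR, where 13.5% of all genes were called, 3 of 10 were called lower, KRT14 (-3.19), DSG3 (-1.70) and KRT17 (-1.13). In the FaDu groups the sums ran from 6938 to 14161 CPM, and 0 of 10 markers were called by edgeR or by DESeq2 in either resistant model, with 3 in AfaR and 4 in ErlR at an unadjusted p under 0.05. Of all genes, 7.43% were called in FaDu AfaR and 2.05% in FaDu ErlR, so 0 of 10 was near these shares. The counts at an unadjusted p have no such share beside them. Fibroblast markers summed to 315 and 327 CPM in Cal27 AfaR, 30.3 and 41.9 CPM in Cal27 parental, 5.56 and 10.9 CPM in Cal27 ErlR and 4.81 to 10.6 CPM in FaDu. Of the 10, 5 were tested in Cal27. Against 19.6% of all genes, 3 of the 5 were called higher in AfaR, namely LUM (8.09), COL1A1 (3.15) and PDGFRB (2.91). Against 13.5% of all genes, 3 of the 5 were called lower in ErlR, COL1A1 (-2.41), PDGFRB (-2.39) and COL1A2 (-1.51). The 5 markers too low to be tested, DCN, PDGFRA, THY1, FAP and POSTN, were at most at 0.631 CPM in any library, and the remaining collagen genes COL1A2 and COL3A1 were not called in AfaR, with means of 4.11 and 0.815 CPM. The part of these markers in the VIM, CDH2 and CDH11 values was not tested.

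Leukocyte markers summed to 10.5 to 19.1 CPM over all libraries, and 1 of 4 tested, CD68, was called lower by edgeR in each resistant Cal27 model (log2 fold change -1.11 in AfaR and -1.31 in ErlR) but not by DESeq2 (adjusted p = 0.0905 and 0.055). A count of 1 of 4 was near the shares of all genes called, 19.6% in AfaR and 13.5% in ErlR. Endothelial markers summed to 2.68 to 37.6 CPM, of which CDH5 made up most in Cal27 parental and AfaR, while KDR, TEK and CLDN5 stayed below 0.526 CPM. The fall of CDH5 in Cal27 ErlR was the 1 endothelial call in a resistant model, 1 of 2 tested there against 13.5% of all genes.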

How the data were processed

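Poly(A) RNA of 12 libraries was sequenced with ERCC spike-ins, and all libraries carry the same batch label. The authors deposited raw counts, whole reads per gene identifier over merged exons. The submitters' processing notes name Trimmomatic 0.36, STAR 2.5.2b, featureCounts, Subread 1.5.2 and GRCh38, and the annotation release is not given in the sources used here. The authors' separate tables of normalized values were not used here. The 9 members and all gene lists were chosen with earlier results of these data known. Every library was assigned to a group by its title.

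Counts of genes passing filterByExpr were scaled by TMM and fitted with edgeR 4.0.16 (R 4.3.3), 15092 genes over the 6 FaDu libraries, 15269 over the 6 Cal27 libraries, and 16240 over all 12 for the parental lines and the interactions. Standard errors are the log2 fold change over the root of F. The study's own test, DESeq2 (1.42.0 here), was an alternative, as were ERCC scaling, upper-quartile scaling, other filters, other sets of libraries, a replicate block and leaving out each library. The edgeR comparisons of AfaR with parental cells and of the parental lines were tested on simulated data. Biological variation was 14.5% to 15.3%, and totals of 16334937 to 23399259 counts set the precision of low genes such as CDH6 and CDH11. Beyond the members, up to 3 called genes per list and comparison with the largest change were named, the 3 genes nearest in pattern to CDH1, CDH2, CDH3 and VIM (mean of at least 5 CPM), and antisense genes sharing exons.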

Additional observations from a re-analysis of the deposited data

Results flagged for a closer look

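Changes against the parental cells that differed between FaDu and Cal27 by the interaction test were taken up here, as log2 differences of FaDu minus Cal27 with edgeR adjusted p. For afatinib resistance they were 3.13 for CDH1 (SE 0.22, adjusted p = 2.49e-06), 2.29 for CDH3 (SE 0.24, adjusted p = 4.91e-05) and -5.68 for VIM (SE 0.21, adjusted p = 2.33e-08). For erlotinib resistance they were 1.41 for CDH2 (SE 0.34, adjusted p = 0.0128), 5.54 for CDH11 (SE 0.92, adjusted p = 0.00206) and -1.87 for CDH13 (SE 0.44, adjusted p = 0.0123). CDH11 was near the floor, with 2 and 4 counts in Cal27 ErlR and 6 and 11 in FaDu parental. Each value sets 1 selected population of one line against 1 of the other, so a difference between the lines cannot be told apart from a difference between single selections.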

How the results depend on the processing

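Of 846 alternative values of single genes, 774 kept their direction and side of the threshold, 17 lost the call, 17 gained it and 38 changed sign. The values that differed only in a looser p or fold rule came from the reported fit. Those values could neither change sign nor lose a call. The counts of called members in Cal27 AfaR stayed within 1.5 times the reported count under every alternative run. Elsewhere, requiring 10 counts in every library left 1 called member in FaDu AfaR, 2 in Cal27 ErlR and 2 between the parental lines, where CDH4, CDH11 or both were then not tested. The adjusted p alone gave 4 in FaDu AfaR. In FaDu ErlR 1 member, CDH11, was called with ERCC scaling, with no filter and at an unadjusted p under 0.05 with the fold limit kept. ERCC scaling gave 7 in the ErlR interaction; the cause was not tested.

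ERCC scaling raised the median log2 difference of all genes to 0.18 in FaDu AfaR, 0.49 in FaDu ErlR, 0.62 between the parental lines, and 0.18 and 0.49 in the AfaR and ErlR interactions, and moved it to -0.29 between the FaDu models. Higher against lower calls went from 233 and 76 to 1514 and 62 in FaDu ErlR, from 3099 and 2031 to 5340 and 956 between the parental lines, from 671 and 226 to 437 and 743 between the FaDu models, from 1230 and 773 to 1503 and 604 in the AfaR interaction and from 1220 and 545 to 2632 and 173 in the ErlR interaction.

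None of the values that changed sign had been called, and the cause was not tested. With ERCC scaling they were CDH4 at 0.0187 and CTNND1 at 0.18 in FaDu AfaR, CDH2 at 0.38 in FaDu ErlR, CTNND1 at 0.40 between the parental lines, CDH3 at -0.17 between the FaDu models, and CDH2 at 0.0315 and CDH4 at 0.0383 in the AfaR interaction. CTNND1 in FaDu AfaR was at 0.0674 with upper-quartile scaling, 0.0254 with at least 10 counts, 0.00818 with the 4 libraries alone and 0.0132 with all 12, and VIM in Cal27 ErlR at -0.00286 with upper-quartile scaling.

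Without 1 library each, called members ranged between 1 and 2 for the FaDu models against each other and between 0 and 2 for FaDu AfaR. Values that changed sign ranged, in FaDu AfaR, from -0.77 to 0.60 (CDH4), -0.25 to 0.19 (CTNND1) and -0.13 to 0.19 (VIM), and in FaDu ErlR from -0.67 to 0.24 (CDH2), -0.45 to 0.94 (CDH4) and -0.0223 to 0.26 (VIM). Between the FaDu models the ranges were -0.34 to 1.36 (CDH11), -0.0529 to 0.29 (CDH3), -0.94 to 0.31 (CDH4) and -0.24 to 0.0758 (VIM). In Cal27 they were -0.16 to 0.10 (CDH4, AfaR), -0.0332 to 0.18 (VIM, ErlR) and -0.0646 to 0.0198 (CTNND1, AfaR against ErlR). In the AfaR interaction they were -0.98 to 0.0672 (CDH11), -0.37 to 0.17 (CDH2) and -0.70 to 0.66 (CDH4), and in the ErlR interaction -0.0911 to 0.20 (VIM). A group left with 1 library was assumed to vary like the others.

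Counts over all genes moved by more than 1.5 times in FaDu AfaR (1122, against 1694 unadjusted, 2694 by adjusted p alone, and 243, 600 and 428 without parental replicate 1, parental replicate 2 and AfaR replicate 2), in FaDu ErlR (309, against 1576 with ERCC scaling, 701 with no filter, 950 unadjusted, 631 by adjusted p alone, and 66, 68 and 75 without parental replicate 1, parental replicate 2 and ErlR replicate 2) and between the FaDu models (897, against 1497 unadjusted, 371 without AfaR replicate 2 and 343 without ErlR replicate 2). The unadjusted counts given here are at p under 0.05 with the log2 fold limit of 1 kept, whereas the adjusted p alone had no fold limit. By adjusted p alone Cal27 AfaR had 5745 for 2991, Cal27 ErlR 4215 for 2059 and the parental lines 9022 for 5130, which fell to 3066 with at least 10 counts. The ErlR interaction had 2805 for 1765 with ERCC scaling.

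With the replicate number as a block, called members were 6 (Cal27 AfaR), 4 (Cal27 ErlR), 2 (FaDu AfaR) and 0 (FaDu ErlR), and no call of a member changed, while CTNND1 in Cal27 ErlR no longer passed the adjusted p (edgeR adjusted p = 0.0668). The deviations of same-numbered libraries correlated at -0.17 to 0.10, and the labels name nothing that a number shares.

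With 2 libraries a group, low genes limit what can be seen: CDH6 had at most 8 counts, CDH4 at most 35, and CDH11 at most 11 in FaDu parental, so changes of these genes were detectable only when large.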
